A study of Arabidopsis thaliana with 26 samples.

Results

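The genes of the core and linker histones of Arabidopsis thaliana were examined by variant class in wild-type and memory-line plants grown with or without 5-azacytidine. The set held 39 genes out of 33977 gene identifiers, chosen by locus identifier and histone class. It comprised 8 genes of H4, 5 of H3.1, 3 of H3.3, 4 of H2A, 2 of H2A.X, 3 of H2A.W, 3 of H2A.Z, 8 of H2B and 3 of linker histone H1. All 39 passed the filter on low counts, with 49 to 5279 counts per gene and replicate. The reference annotation TAIR10.1 gives a symbol for 19 of them, and the other 20 are named here by locus identifier.

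RNA was sequenced from 4 groups of plants. The groups were memory-line plants on 100 µM 5-azacytidine (2 biological replicates, 5 libraries), memory-line plants without it (2 biological replicates, 6 libraries), wild-type plants on 100 µM 5-azacytidine (3 biological replicates, 9 libraries) and wild-type plants without it (3 biological replicates, 6 libraries). All were 10-day-old plants of the Columbia-0 background, sown on agar medium with or without the agent and collected whole with the root. 5-azacytidine is a cytidine analogue that traps DNA methyltransferases and so lowers DNA methylation. The memory line is named for MSH1, a MutS homologue of chloroplasts and mitochondria, and the labels give no allele or transgene for it. MSH1 itself was at 13.2 and 14.7 CPM in treated memory-line replicates, 13.3 and 10.6 CPM in memory-line replicates, 12.4, 20.4 and 13.7 CPM in treated wild-type replicates, and 9.47, 8.67 and 14.0 CPM in wild-type replicates, where CPM is gene counts per 1e6 counts of the library after TMM scaling. These values overlapped between genotypes, so this transcript does not separate the memory line from wild type. Gene counts per replicate were 11412839 to 13544859. Reads with several alignments made up 25.7% of memory-line replicate 2 and 6.49% to 13.6% of each other replicate. The labels do not say whether replicates came from separately grown plants or how many plants were pooled. The p-values therefore cover the spread among these replicates, which may be technical.

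Histone proteins package DNA into nucleosomes, which hold H2A, H2B, H3 and H4, while H1 binds the linker DNA between them. In plants, genes of H4, H2B, canonical H2A and H3.1 are mostly transcribed in S phase, when new chromatin is assembled, and H3.3 is deposited outside replication. H2A.W marks silent heterochromatin, H2A.Z sits at gene starts and in the bodies of responsive genes, and H2A.X is phosphorylated at DNA breaks. Because whole plants were sequenced, a different number of dividing cells and a different amount of histone RNA per dividing cell cannot be told apart.

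The sequences that separate the H3 classes are shown first, because the shares of H3.1 and H3.3 are given below. The 5 genes of H3.1 encode the same protein in the RefSeq annotation, as do the 3 genes of H3.3 and the 8 genes of H4. Coding sequences within H3.1 were 80.3% to 89.5% identical over 411 bases, and those of H3.1 and H3.3 genes were 74% to 80.3% identical. The 45 coding bases from base 88 to base 132 are given 5′ to 3′ in the gene's sense, with the codons of residues 31 and 41, counted without the initial methionine, in capitals; the translated proteins of the 2 classes differ at both residues and at residues 87 and 90.
AT1G09200 (H3.1): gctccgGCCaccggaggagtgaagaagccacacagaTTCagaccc
AT5G65360 (H3.1): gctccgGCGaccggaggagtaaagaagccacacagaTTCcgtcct
AT5G10980 (H3.3): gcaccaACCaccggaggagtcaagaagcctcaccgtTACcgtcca
AT4G40040 (H3.3): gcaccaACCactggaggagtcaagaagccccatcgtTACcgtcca
Every 100-base window of the annotated transcript, the length of a read, was unique in the genome for 33 of the 39 genes. In the other 6 genes, 68.8% to 95.7% of the 100-base windows were unique, with the lowest share in the H3.1 gene AT3G27360. Levels of those 6 genes are therefore uncertain. The library kit does not mark strand, so reads of a gene and an overlapping antisense gene cannot be told apart; over 10% of the exon length was overlapped in this way in HTA13, GAMMA-H2AX, HTA12, HTB9 and AT1G06760.

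Promoters were searched for 2 motifs known from plant histone genes. The octamer CGCGGATC, counted on both strands in the 250 bases before the annotated start, was found in 37 of 27443 gene promoters (0.135%) and in 10 of the 39 histone promoters (25.6%). Those 10 were 3 of 5 H3.1, 2 of 4 H2A, 2 of 8 H4, 1 of 3 H2A.W, 1 of 3 H3.3 and 1 of 3 H1 promoters. The hexamer ACGTCA, counted on both strands, was present in 7.69% of all promoters and in 10 histone promoters, 7 of them among the 8 H2B genes. Neither motif contains the other, and AT5G10400 was the only histone promoter with both. The promoters of 4 genes with the octamer are printed below 5′ to 3′ in the gene's sense, from RefSeq TAIR10.1, with the octamer or its reverse complement in capitals. The first 3 belong to genes called in the comparisons below, and the fourth is an H3.3 gene that was not.
AT1G09200 (chr1:2972335-2972584, minus strand): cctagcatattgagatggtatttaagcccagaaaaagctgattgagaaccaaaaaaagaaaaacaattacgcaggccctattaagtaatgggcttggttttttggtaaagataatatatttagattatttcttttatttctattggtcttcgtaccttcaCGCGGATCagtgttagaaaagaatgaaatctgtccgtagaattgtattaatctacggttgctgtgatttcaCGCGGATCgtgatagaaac
HTA10 (chr1:18926561-18926810, plus strand): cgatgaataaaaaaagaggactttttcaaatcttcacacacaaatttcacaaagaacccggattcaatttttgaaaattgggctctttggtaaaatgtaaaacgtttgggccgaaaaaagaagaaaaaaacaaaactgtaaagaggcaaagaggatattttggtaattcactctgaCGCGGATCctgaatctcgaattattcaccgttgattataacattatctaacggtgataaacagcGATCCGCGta
HTA6 (chr5:24116221-24116470, minus strand): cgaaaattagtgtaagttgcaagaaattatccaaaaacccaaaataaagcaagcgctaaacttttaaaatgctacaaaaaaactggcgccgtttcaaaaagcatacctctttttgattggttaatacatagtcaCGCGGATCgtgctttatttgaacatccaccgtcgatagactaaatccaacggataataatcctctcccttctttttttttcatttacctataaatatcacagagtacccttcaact
AT4G40040 (chr4:18558946-18559195, minus strand): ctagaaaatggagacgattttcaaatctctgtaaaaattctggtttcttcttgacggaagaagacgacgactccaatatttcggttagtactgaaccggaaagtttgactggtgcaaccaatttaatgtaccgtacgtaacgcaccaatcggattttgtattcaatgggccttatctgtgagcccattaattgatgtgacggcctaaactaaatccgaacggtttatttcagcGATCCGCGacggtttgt
In these promoters the octamer began 90 and 19 bases before the start of AT1G09200, 74 and 10 bases before that of HTA10, 116 bases before that of HTA6 and 17 bases before that of AT4G40040. A match of letters is a description of the sequence and not a measurement of binding.

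Transcript levels spread widely within most classes. Per kilobase of exon, the sum over a class in untreated wild-type plants was highest for H2B, at 774 ± 44.9 CPM per kb (SD, n = 3), followed by H4 at 686 ± 39.4, H3.3 at 642 ± 26.5, H3.1 at 424 ± 40.4, H2A at 337 ± 4.91, H2A.Z at 254 ± 14.0, H1 at 229 ± 6.69, H2A.W at 190.2 ± 22.2 and H2A.X at 124 ± 5.00. The replicates of H2B and H4 overlapped, as did those of H4 and H3.3, and the other neighbours in this order did not overlap. Exon length was joined over all annotated transcripts of a gene. For AT4G40040 and AT4G40030 it was 1510 and 1324 bases, against longest transcripts of 1289 and 1036 bases. The place of H3.3 in this order and the order of its genes may depend on that choice. So may the H3 shares below, and this was not tested. The 3 H3.3 genes lay close together, with means over all replicates of 248 CPM per kb for AT5G10980, 241 for AT4G40040 and 179.8 for AT4G40030. By contrast, the H2A.W class rested on HTA6 at 158 CPM per kb, with HTA7 at 59.0 and HTA12 at 4.59, the lowest of the 39 genes. HTA12 overlaps an antisense histone gene over 34.7% of its exons. In H2B, HTB9 and HTB2 led at 189 and 187 CPM per kb and AT3G53650 had 10.8. Of the linker histones, AT1G06760 had 143 CPM per kb, AT2G30620 had 84.3 and HIS1-3, which is known as a drought-inducible linker histone, had 10.3.

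**Figure D1:**
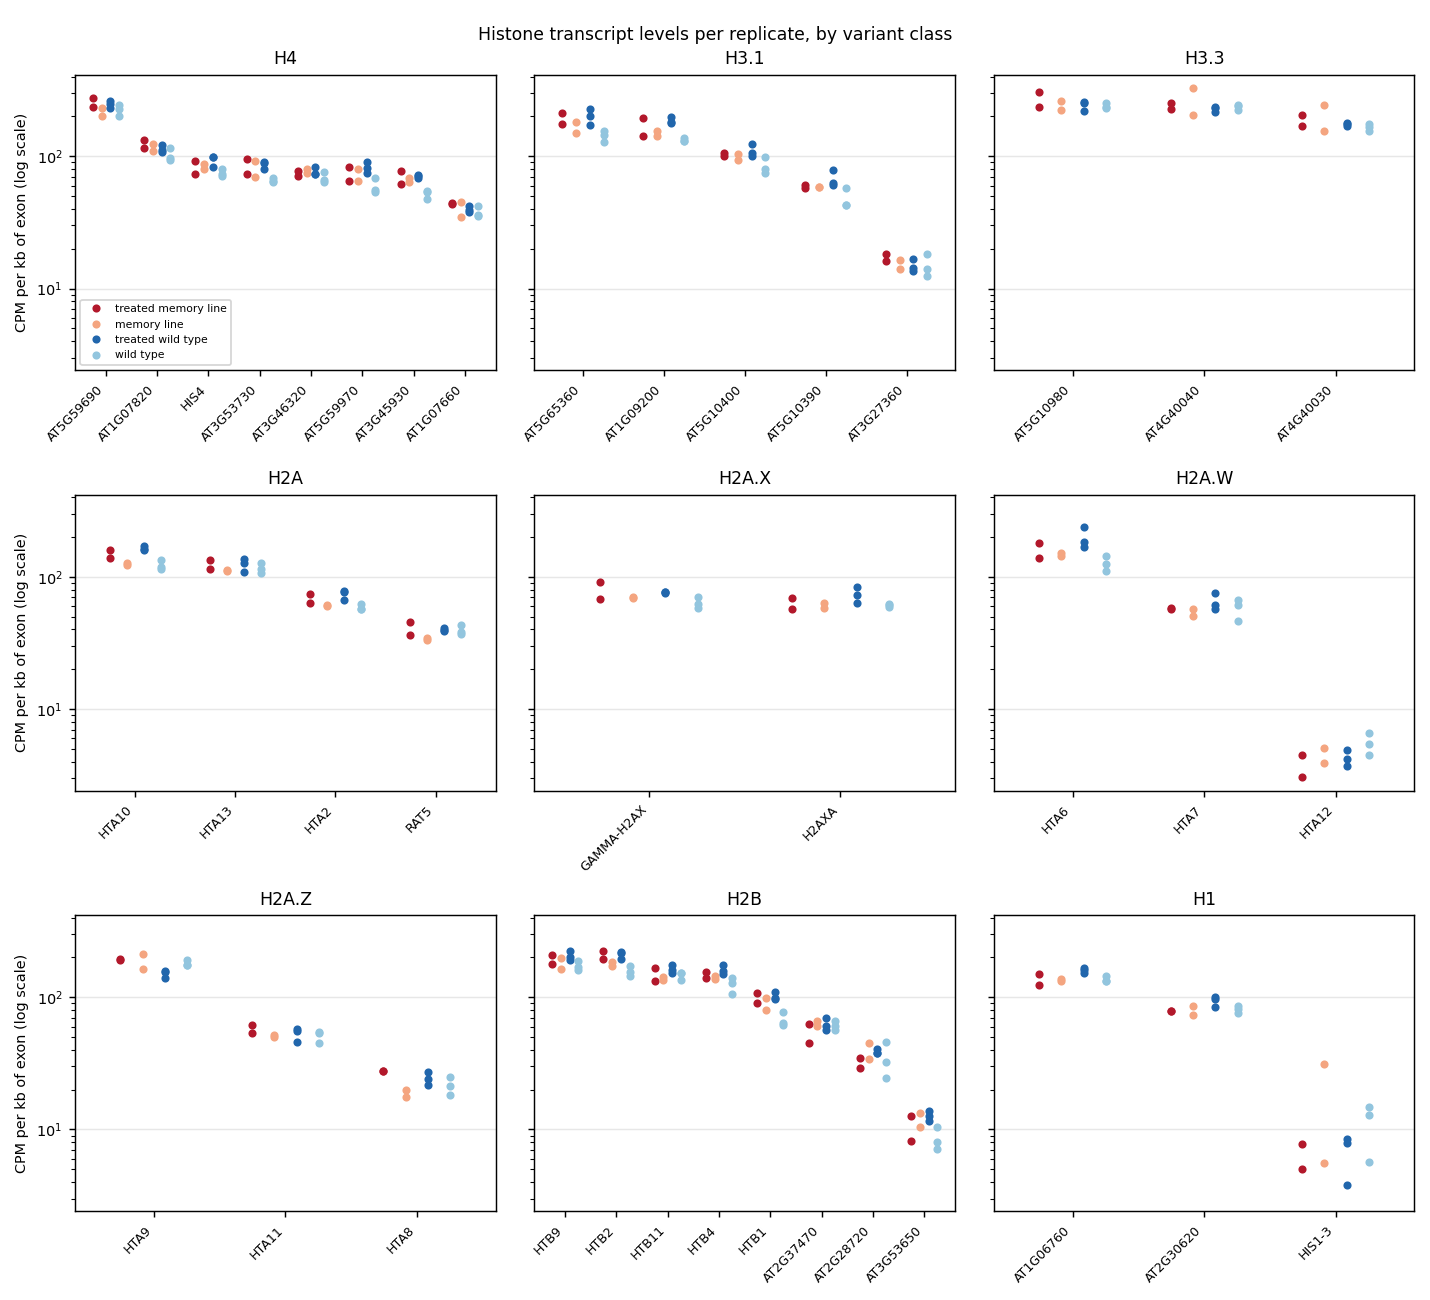
Level of each histone gene in every biological replicate, in CPM per kilobase of exon on a log axis, with one panel per variant class and genes in falling order. Levels differ more between genes of a class than between groups of 1 gene in most panels, and HTA12, HIS1-3, AT3G53650 and AT3G27360 lie lowest in their classes.

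Azacytidine raised a small set of histone transcripts in wild-type plants, spread over 5 classes, and most of the others were higher without passing the test. A gene was called at an adjusted p under 0.05 in edgeR's quasi-likelihood test, with Benjamini-Hochberg adjustment over 22031 genes. By this test 5 of the 39 genes rose and 0 fell, where 6.39% of all genes tested were called, with 3.02% rising and 3.37% falling. The 5 were HTA6 of H2A.W, HTB1 of H2B, AT1G09200 of H3.1, AT3G45930 of H4 and HTA10 of canonical H2A. The log2 change was above 0 in 34 of 39 genes, where 50.2% of all genes tested were above 0. Its median was 0.22 over the histone genes and 0.00 over all genes. The replicates of treated and untreated plants did not overlap in 19 genes that were higher on azacytidine and in 1 that was lower. Of all genes, 15.2% were separated as higher and another 15.2% as lower. The 39 genes together took 4179, 3830 and 3849 CPM in treated wild-type replicates, against 3313, 3385 and 3534 CPM in wild-type replicates.

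HTA6, the main H2A.W gene of these plants (AT5G59870, chromosome 5, 24115354 to 24116220, minus strand), showed the largest called change. It was at 184, 143 and 130.2 CPM in treated wild-type replicates, against 97.0, 86.3 and 112 CPM in wild-type replicates. Each treated replicate lay above each untreated one, and treated replicate 1 stood highest. The fold was 1.55 (log2 change 0.63 ± 0.16, SE; edgeR adjusted p = 0.0308).

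HTB1 of H2B (AT1G07790, chromosome 1, 2412938 to 2413790, plus strand) was at 93.8, 84.1 and 82.5 CPM in treated wild-type replicates, against 54.9, 52.6 and 66.3 CPM in wild-type replicates. All treated values lay above the untreated ones, and the fold was 1.5 (log2 change 0.58 ± 0.13, SE; edgeR adjusted p = 0.0224). AT1G09200 of H3.1, whose promoter holds the octamer in 2 places (chromosome 1, 2971571 to 2972334, minus strand), was at 152, 137.6 and 135.8 CPM in treated wild-type replicates, against 99.2, 100.2 and 105 CPM in wild-type replicates. All treated replicates again lay above the untreated ones, and the fold was 1.40 (log2 change 0.48 ± 0.13, SE; edgeR adjusted p = 0.0421).

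HTA10 of canonical H2A (AT1G51060, chromosome 1, 18926811 to 18927746, plus strand) was at 144, 135 and 134 CPM in treated wild-type replicates, against 96.6, 100.3 and 112 CPM in wild-type replicates. The fold was 1.34 (log2 change 0.42 ± 0.11, SE; edgeR adjusted p = 0.0424). AT3G45930 of H4 (chromosome 3, 16883316 to 16884009, plus strand) was at 50.4, 47.3 and 49.4 CPM in treated wild-type replicates, against 33.2, 37.2 and 38.2 CPM in wild-type replicates. Both groups were separate, and the fold was 1.35 (log2 change 0.44 ± 0.12, SE; edgeR adjusted p = 0.0402). Of its 100-base windows, 88.9% were unique, so some reads could not be assigned to it. The H4 gene AT3G46320, at 87.9% unique windows, averaged 49.3 ± 3.8 CPM in treated wild-type plants and 44.3 ± 4.47 CPM in wild-type plants (SD, n = 3 each) and was not called.

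The 5 calls depended on single replicates. None was made without wild-type replicate 1, wild-type replicate 2, treated wild-type replicate 1 or treated wild-type replicate 2, HTA6 and HTB1 alone were called without treated wild-type replicate 3, 8 histone genes were called without memory-line replicate 1 or memory-line replicate 2, and 11 were called without wild-type replicate 3. The 5 genes were also among 8 histone genes called with no filter on low counts and among 9 called by DESeq2, and HTA6 alone was called from the first technical library of each replicate. The change of each of the 5 genes was above 0 under all 15 alternatives, with the lowest log2 change at 0.33 for AT3G45930.

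**Figure D2:**
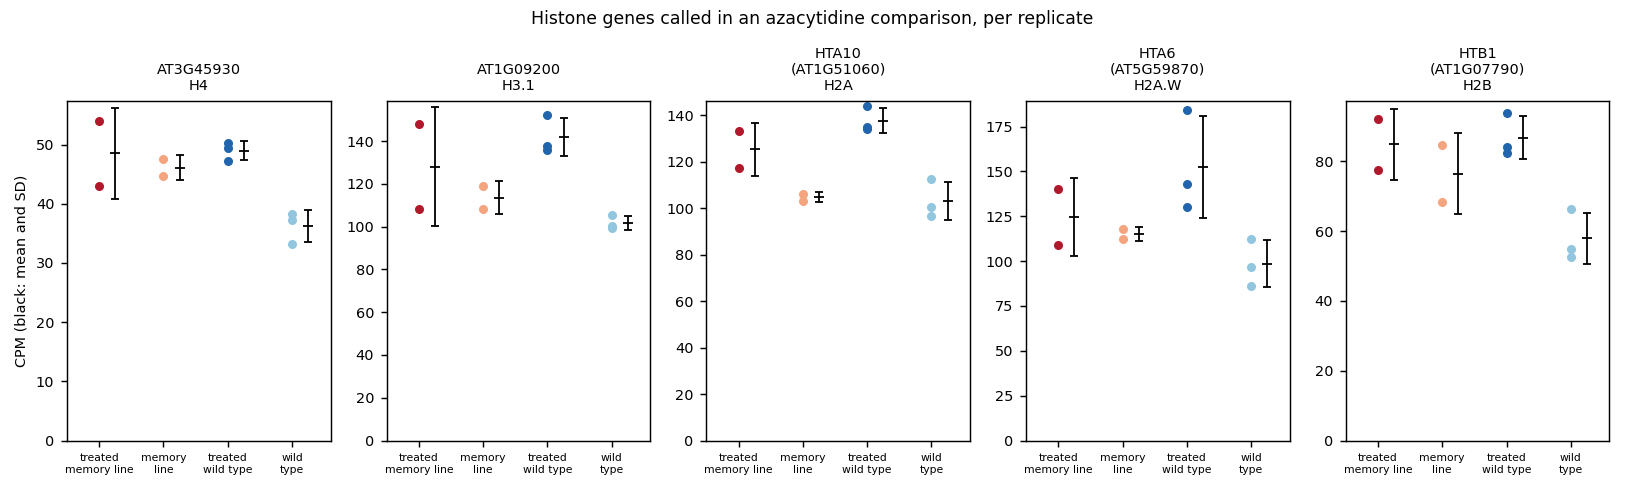
CPM of the 5 histone genes called in an azacytidine comparison, in each replicate of the 4 groups, with the group mean and SD in black. In treated wild-type plants all replicates lie above those of untreated wild-type plants, and the memory-line groups lie between or overlap them.

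By class, H2A.W and H3.1 had the largest ratios in wild-type plants, and H3.3 and H2A.Z the smallest. The summed level per kb was 579 ± 59.5 CPM for H3.1 in treated wild-type plants and 424 ± 40.4 in wild-type plants, a ratio of 1.36. The ratio was 1.39 for H2A.W, 1.23 for H2B, 1.21 for H2A.X, 1.19 for H2A, 1.18 for H4 and 1.14 for H1, and in each of these classes the treated sums lay above the untreated ones. The H2A.W ratio rested on HTA6, since HTA7 had a log2 change of 0.15 and HTA12 of -0.37, both with overlapping replicates. H3.3 had a ratio of 1.01 with overlapping replicates. H2A.Z, at 228 ± 16.8 CPM per kb in treated and 254 ± 14.0 in untreated wild-type plants, had a ratio of 0.896, with all treated sums below the untreated ones.

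Within H3.1, 4 of 5 genes were higher by 0.38 to 0.49 on the log2 scale, and AT1G09200 was the gene called. AT5G65360, the most abundant H3.1 gene, was at 164, 146 and 125 CPM in treated wild-type replicates, against 105, 93.4 and 113 CPM in wild-type replicates. The groups did not overlap, but the change of 0.48 missed the threshold (edgeR adjusted p = 0.0584). The exception was AT3G27360, with a log2 change of -0.01, the gene with the lowest share of unique windows. The 3 H3.3 genes had log2 changes of -0.06 to 0.07. The one with the highest level per kb, AT5G10980, was at 208, 181 and 209 CPM in treated wild-type replicates, against 192, 206 and 188 CPM in wild-type replicates, and these overlapped.

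All 8 H4 genes were higher on azacytidine in wild-type plants, by 0.07 to 0.48 on the log2 scale, and 1 was called. The most abundant, AT5G59690, was at 196, 174 and 186 CPM in treated wild-type replicates, against 180.5, 151 and 170.2 CPM in wild-type replicates, with overlap (log2 change 0.15). All 8 H2B genes were likewise higher, by 0.02 to 0.58, with 1 called. HTB9, the most abundant per kb, was at 163, 147 and 139 CPM in treated wild-type replicates, against 118, 137 and 123 CPM in wild-type replicates. Those groups did not overlap, and the log2 change was 0.25 (edgeR adjusted p = 0.253); 37.3% of its exon length is shared with an antisense gene.

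Of the H2A variants, all 4 canonical H2A genes and both H2A.X genes had log2 changes above 0 in wild type, and 1 of 3 H2A.Z genes was below 0. HTA9, which supplies most of the H2A.Z transcript, was at 133, 119 and 129.6 CPM in treated wild-type replicates, against 162, 148 and 148 CPM in wild-type replicates. It was the only one of the 39 genes whose treated replicates all lay below the untreated ones, and the log2 change of -0.27 was not called (edgeR adjusted p = 0.209). HTA8 and HTA11 had log2 changes of 0.17 and 0.05. GAMMA-H2AX of the DNA break variant H2A.X was at 61.0, 61.0 and 60.5 CPM in treated wild-type replicates, against 46.2, 49.5 and 55.9 CPM in wild-type replicates. The treated replicates were nearly equal and all higher, but the change of 0.27 was not called (edgeR adjusted p = 0.206), 62.3% of its exon length overlaps an antisense gene, and 77.2% of its windows were unique. H2AXA had a log2 change of 0.27 as well. The H1 gene AT1G06760 was at 186, 193 and 177 CPM in treated wild-type replicates, against 154, 153 and 169 CPM in wild-type replicates, with a log2 change of 0.23 that was not called.

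**Figure D3:**
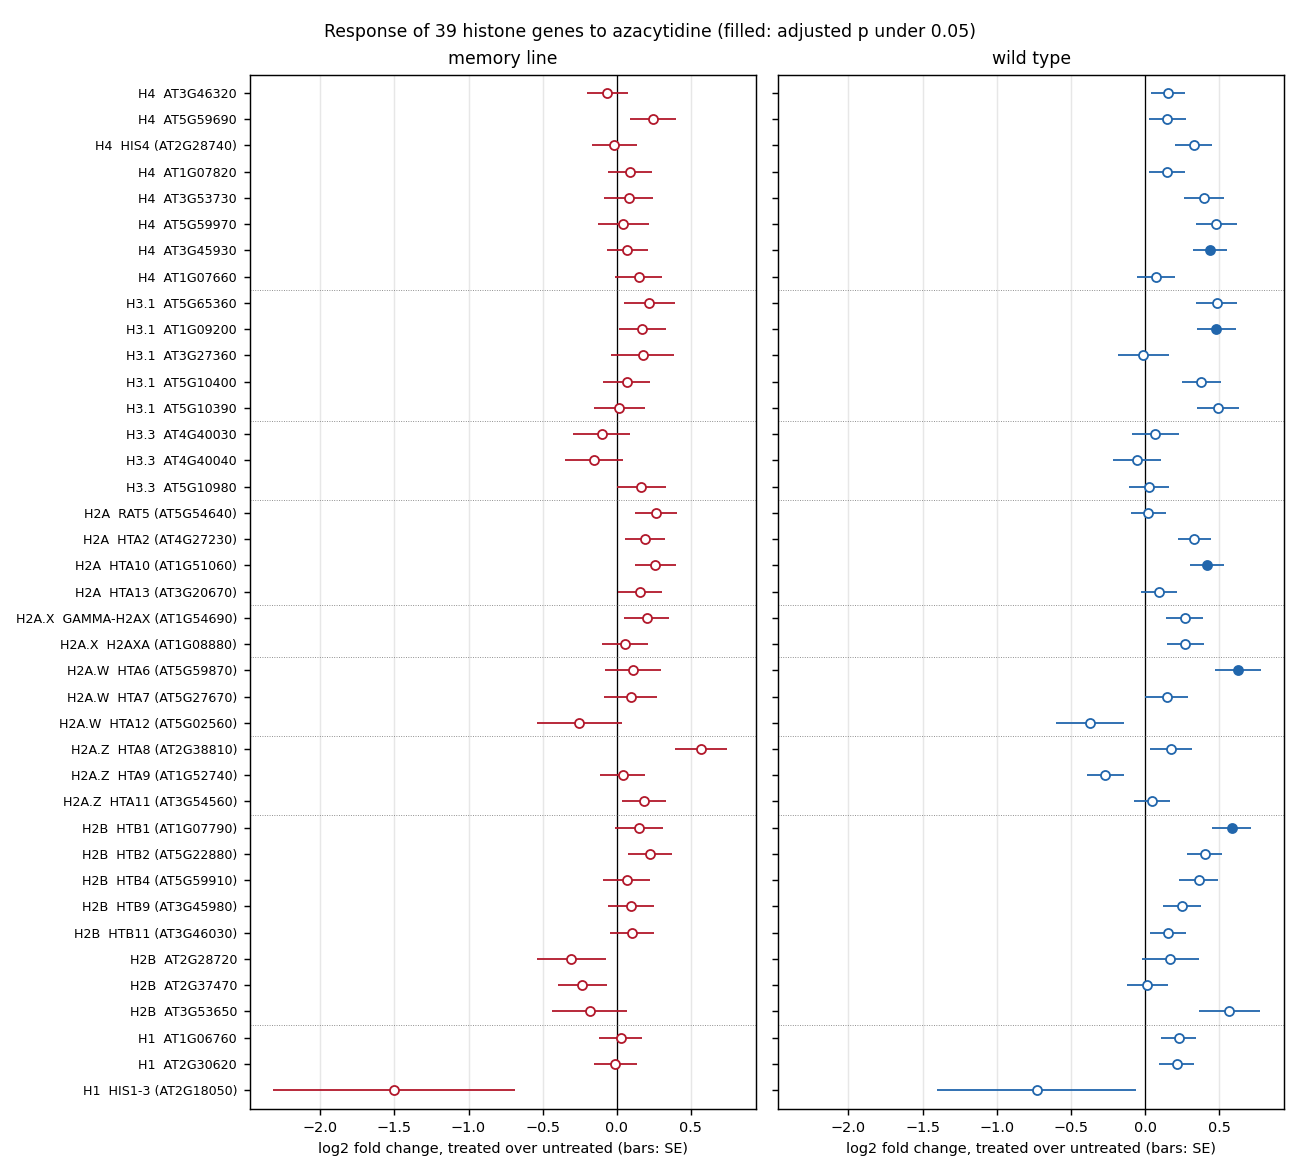
Log2 fold change of each histone gene, treated over untreated, in the memory line (left) and in wild type (right), with standard errors and genes grouped by class; filled points have an adjusted p under 0.05. The filled points are the 5 genes called in wild type, and none is filled in the memory line.

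The balance between variants was described from levels per kb within each family, with no test, because the classes were proposed with earlier results of these data known. H3.1 genes made up 49.9%, 47.3% and 44.4% of the H3 level in treated wild-type replicates, against 39.4%, 36.8% and 43.0% in wild-type replicates. The groups did not overlap, with means of 47.2% ± 2.75 and 39.7% ± 3.11 (SD, n = 3 each). In the memory line the shares were 43.5% and 43.8% in treated replicates, against 43.9% and 38.2% in untreated ones, and overlapped. H2A.Z genes made up 21.2%, 21.5% and 23.0% of the H2A family level in treated wild-type replicates, against 29.7%, 27.4% and 27.1% in wild-type replicates, again without overlap. Their share was 25.4% and 29.2% in treated memory-line replicates, against 26.1% and 29.7% in memory-line replicates. H2A.W made up 25.3% ± 2.86 in treated wild-type plants and 21.0% ± 1.75 in wild-type plants (SD, n = 3 each), and those replicates overlapped. Canonical H2A and H2A.X differed less, at 38.6% ± 1.85 and 14.3% ± 0.153 in treated wild-type plants and 37.3% ± 0.917 and 13.7% ± 0.351 in wild-type plants.

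**Figure D4:**
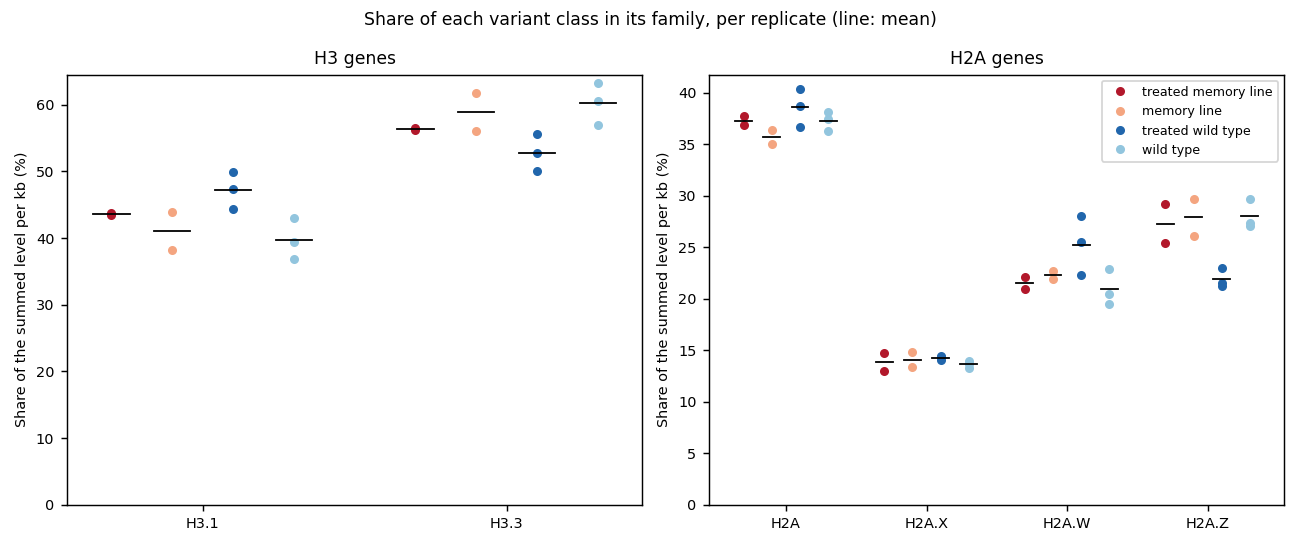
Share of each variant class in the summed level per kb of its family, in percent, for every replicate, with the group mean as a line; H3 classes are on the left and H2A classes on the right. In wild type the H3.1 share is higher and the H2A.Z share lower on azacytidine without overlap, and in the memory line the replicates overlap.

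In the memory line 0 of 39 histone genes were called on azacytidine, where 0.74% of all genes tested were called. In edgeR 1 histone gene had an unadjusted p under 0.05, where 8.98% of all genes did, and DESeq2 called 0. The log2 change was above 0 in 29 genes, where 52% of all genes were above 0, with a median of 0.09 over the histone genes and 0.01 over all genes, and without treated memory-line replicate 1 the median was -0.02. Replicates did not overlap in 8 genes that were higher, where 19.9% of all genes were separated in that direction, and in 0 that were lower, where the share was 16.1%. The count of 8 among 39 genes was close to the share over all genes. These 8 included all 4 canonical H2A genes, none of them called. HTA10 was at 133 and 117 CPM in treated memory-line replicates, against 103 and 106 CPM in memory-line replicates, with a log2 change of 0.26 (edgeR adjusted p = 0.621). The gene with the unadjusted p under 0.05 was HTA8 of H2A.Z. It was at 24.5 and 24.7 CPM in treated memory-line replicates, against 17.6 and 15.6 CPM in memory-line replicates, with a log2 change of 0.57 (edgeR adjusted p = 0.255).

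The other genes called in wild type overlapped between treated and untreated memory-line replicates. HTA6 was at 140.1 and 109 CPM in treated memory-line replicates, against 112.5 and 118 CPM in memory-line replicates, with a log2 change of 0.11. AT1G09200 was at 148 and 108 CPM in treated memory-line replicates, against 108 and 119 CPM in memory-line replicates, with a log2 change of 0.17. HTB1 was at 92.1 and 77.6 CPM in treated memory-line replicates, against 68.2 and 84.7 CPM in memory-line replicates, and AT3G45930 was at 54.0 and 43.0 CPM, against 44.6 and 47.6 CPM. In each of these genes treated replicate 1 was the higher of its pair.

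The responses of both genotypes share no samples. Over the 39 genes the log2 change had the same sign in both genotypes in 30 genes. With its sign kept, it was lower in the memory line in 29, among them HIS1-3, which fell further there. Across genes, which are not independent replicates and share the scaling of each library, Pearson's r was 0.573 and Spearman's rho 0.189, and r was 0.214 without HIS1-3. The difference between the responses was tested directly with an interaction term. It was called for 0 histone genes, where 0.0182% of all genes were called. In edgeR 1 histone gene had an unadjusted p under 0.05, where 8.58% of all genes did, and DESeq2 called 0. The median difference, memory line minus wild type, was -0.18 on the log2 scale over the histone genes and 0.01 over all genes. It was -0.28 without memory-line replicate 1 and -0.28 without treated memory-line replicate 1. It was above 0 in 10 of 39 genes, where 51.4% of all genes were above 0. It was below 0 in all 8 H2B and all 3 H1 genes and above 0 in all 3 H2A.Z genes. The gene with the unadjusted p under 0.05 was the H2B gene AT3G53650, with a difference of -0.75 ± 0.33 (SE; edgeR adjusted p = 0.565). HTA6 had a difference of -0.52 ± 0.25 (SE; edgeR adjusted p = 0.588).

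Averaged over both genotypes, 1 of 39 histone genes rose on azacytidine and 0 fell, where 4.5% of all genes were called, 2.03% rising and 2.47% falling. That count lay near the share of all genes that rose. The gene was HTA10, with a log2 change of 0.34 ± 0.09 (SE; edgeR adjusted p = 0.0467). In this mean 32 of 39 genes were above 0, where 51% of all genes were, with a median of 0.16 over the histone genes and 0.01 over all genes. DESeq2 called HTA10, HTB1 and HTB2. The call of HTA10 remained under 3 of 15 alternatives and was lost under the other 12, which include leaving out each of the other 9 replicates. The 3 were other scaling factors, DESeq2 and leaving out wild-type replicate 3. Without wild-type replicate 3, 5 histone genes rose, and they were HTA10, HTA6, HTA8, HTB1 and HTB2. AT1G09200 alone rose without treated memory-line replicate 2.

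Without azacytidine, 0 of 39 histone genes differed between memory-line and wild-type plants, where 1.17% of all genes were called, 0.694% being higher in the memory line and 0.477% lower. In edgeR 2 histone genes had an unadjusted p under 0.05, where 15.9% of all genes did, and DESeq2 called 0. The median log2 change was 0.14 over the histone genes and 0.00 over all genes, and it was 0.00 without memory-line replicate 2. Replicates did not overlap in 7 genes that were higher in the memory line, where 14.4% of all genes were so separated, and in 1 that was lower, where the share of all genes was 15.3%. The 2 genes were HTB1 and AT3G45930, which had also been called on azacytidine in wild type. HTB1 averaged 76.4 ± 11.6 CPM in memory-line plants (SD, n = 2) and 57.9 ± 7.33 CPM in wild-type plants (SD, n = 3), with a log2 change of 0.40 ± 0.15 (SE; edgeR adjusted p = 0.201). AT3G45930 averaged 46.1 ± 2.14 CPM in memory-line plants (SD, n = 2) and 36.2 ± 2.68 CPM in wild-type plants (SD, n = 3), with a log2 change of 0.35 ± 0.13 (SE; edgeR adjusted p = 0.199). The wild-type samples of this comparison are also those of the azacytidine comparison in wild type, so both comparisons share them.

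On azacytidine, 0 of 39 histone genes differed between treated memory-line and treated wild-type plants, where 0.0454% of all genes were called, 0.0227% being higher in the memory line and 0.0227% lower. In edgeR 1 histone gene had an unadjusted p under 0.05, where 12.1% of all genes did, and DESeq2 called 0. The log2 change was above 0 in 12 of 39 genes, where 51.3% of all genes were above 0. Its median was -0.06 over the histone genes and 0.01 over all genes, and it was -0.19 without treated memory-line replicate 1. Replicates did not overlap in 3 genes that were higher in the memory line, where 17.9% of all genes were so separated, and in 5 that were lower, where the share was 15.5%. All 8 H2B genes were lower, with a median of -0.12, and all 3 H2A.Z genes were higher, with a median of 0.20. HTA9 was at 165 and 160.5 CPM in treated memory-line replicates, against 133, 119 and 129.6 CPM in treated wild-type replicates, without overlap (log2 change 0.36 ± 0.14, SE; edgeR adjusted p = 0.335).

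HIS1-3 and 2 neighbouring H3.3 genes varied most between the memory-line replicates. HIS1-3 (AT2G18050, chromosome 2, 7845923 to 7847031, plus strand) was at 4.85 and 7.51 CPM in treated memory-line replicates, 5.38 and 30.3 CPM in memory-line replicates, 3.69, 7.59 and 8.16 CPM in treated wild-type replicates, and 12.6, 14.3 and 5.52 CPM in wild-type replicates. Its level in memory-line replicate 2 was the highest of all 10, and its azacytidine response in the memory line was between -2.28 and 0.21 on the log2 scale over the 15 alternatives. HIS1-3 was called in 1 alternative, where it fell on azacytidine over both genotypes without memory-line replicate 1. AT4G40040 was at 379 and 345 CPM in treated memory-line replicates, 309.6 and 496 CPM in memory-line replicates, 325, 355 and 352 CPM in treated wild-type replicates, and 363, 370.2 and 339.5 CPM in wild-type replicates. AT4G40030, which lies beside it on chromosome 4, was at 272 and 224 CPM in treated memory-line replicates, 207 and 326 CPM in memory-line replicates, 237, 225 and 231 CPM in treated wild-type replicates, and 207, 232 and 221 CPM in wild-type replicates. All 3 genes peaked in memory-line replicate 2, the replicate with 25.7% of its reads aligned at several places. Those reads lie outside the gene counts, and 100% of the 100-base windows of each of these genes were unique. The cause of the peaks was not tested.

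**Figure D5:**
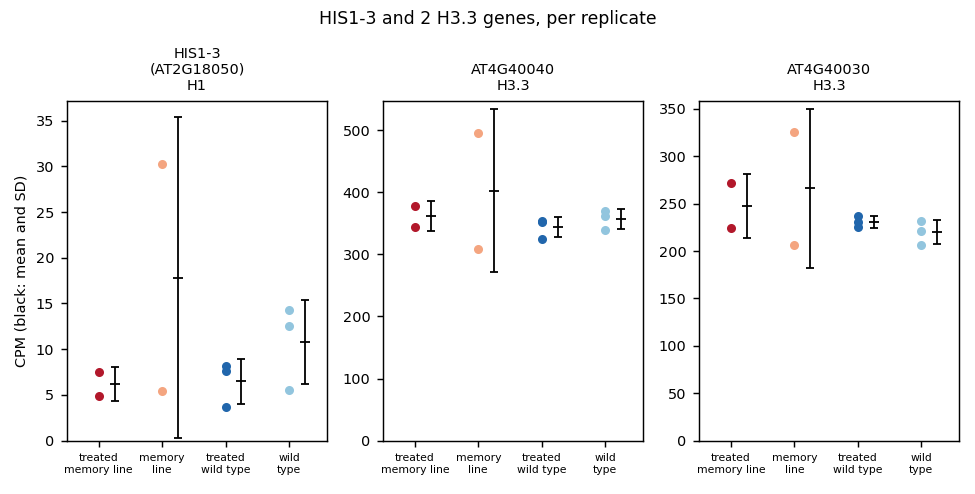
CPM of HIS1-3, AT4G40040 and AT4G40030 in each replicate of the 4 groups, with the group mean and SD in black. The highest point of each panel is memory-line replicate 2, at 30.3, 496 and 326 CPM.

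Promoters with and without the octamer were compared by counts only. In wild type, 3 of the 10 genes with the octamer and 2 of the 29 genes without it rose on azacytidine, where 3.02% of all genes rose. None of these calls was made without wild-type replicate 1 or 2 or without treated wild-type replicate 1 or 2. The median log2 change was 0.30 with it, over a range of -0.06 to 0.63, and 0.17 without it, over a range of -0.73 to 0.58. The lowest value with the octamer was that of the H3.3 gene AT4G40040. In the memory line the medians were 0.15 and 0.07.

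Genes that act with histones were examined as lists, whose calls were not recomputed under the alternatives. Of 25 genes of histone chaperones and chromatin remodellers, 1 rose and 0 fell on azacytidine in wild type, where 3.02% of all genes rose, with a median log2 change of 0.13. It was NRP1, a chaperone related to NAP1 that binds H2A and H2B, at 113, 108.5 and 121 CPM in treated wild-type replicates, against 62.6, 67.0 and 92.9 CPM in wild-type replicates (log2 change 0.62 ± 0.15, SE; edgeR adjusted p = 0.0258). Over both genotypes, where 2.03% of all genes rose, 3 chaperone genes did: NRP1 by 0.52, its paralogue NRP2 by 0.42 and FKBP53, a nuclear histone chaperone of the immunophilin family, by 0.54 on the log2 scale.

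Of 19 S-phase genes, 3 rose and 0 fell in wild type, where 3.02% of all genes rose. The log2 change was above 0 in 18 of 19, where 50.2% of all genes were above 0, and its median was 0.49. They were TSO2, a small subunit of ribonucleotide reductase, at 0.79, RNR1, its large subunit, at 0.57, and MCM4, a subunit of the replicative helicase, at 0.56. Of 9 mitosis genes, 3 rose and 0 fell, all 9 were above 0 and the median was 0.50. They were the cyclins CYCB1;4 and CYCB1;2, at 0.71 and 0.60, and KNOLLE, a syntaxin of cytokinesis, at 0.51; 33.5% of KNOLLE's exon length overlaps an antisense gene. The summed level of the S-phase list was 592 to 682 CPM in treated wild-type replicates, against 386 to 538 CPM in wild-type replicates. That of the mitosis list was 231 to 272 CPM in treated and 161 to 224 CPM in untreated wild-type replicates. Both lists moved with the histone genes in wild type, and their part in the histone changes was not tested. In the memory line 0 genes of these lists were called, where 0.477% of all genes rose and 0.263% fell. The medians there were 0.29 for S phase and 0.20 for mitosis. The S-phase sum was 585 and 638 CPM in treated memory-line replicates 1 and 2, against 571 and 418 CPM in untreated replicates 1 and 2. The mitosis sum was 230 and 252 CPM in the treated replicates, against 216 and 197 CPM in the untreated ones. In each memory-line group the replicate with the higher histone sum had the lower sum of both lists.

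Markers of root tissue moved the other way. Of 6 root markers, 4 fell and 0 rose in wild type, where 3.37% of all genes fell, with a median log2 change of -0.88. All 4 act in building the endodermal Casparian strip: the log2 change was -1.40 for CASP2, -1.16 for PER64, -1.01 for CASP1 and -0.74 for ESB1, of whose exon length 84.3% overlaps an antisense gene. The summed level of the 6 markers was 31.5 to 43.6 CPM in treated wild-type replicates, against 63.6 to 72.4 CPM in wild-type replicates. It was 32.2 to 36.1 CPM in treated memory-line replicates, against 50.9 to 58.1 CPM in memory-line replicates. In the memory line 0 of the 6 root markers were called, where 0.74% of all genes were. No marker was at 0 in any replicate. Of 6 shoot markers, 0 were called in wild type, where 6.39% of all genes were. Their summed level was 28397 to 29322 CPM in treated and 24919 to 32821 CPM in untreated wild-type replicates. In the memory line 0 of 6 shoot markers were called, where 0.74% of all genes were. Their summed level was 33604 and 16971 CPM in treated replicates 1 and 2, against 18890 and 36143 CPM in untreated replicates 1 and 2. The 39 histone genes together took 4159 and 3556 CPM in those treated replicates, against 3371 and 4012 CPM in the untreated ones. In each memory-line group the replicate with the higher shoot-marker sum also had the higher histone sum. Treated wild-type replicate 1 likewise had the highest of both sums in its group. In untreated wild-type replicates 1, 2 and 3 the order was reversed. Their shoot-marker sums were 32821, 29080 and 24919 CPM, and their histone sums were 3313, 3385 and 3534 CPM. The part of the root and shoot markers in the histone results was not tested.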

How the data were processed

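RNA of whole plants went into TruSeq version 2 libraries, which do not mark strand, and 100-base reads were taken, per the labels' protocols. The authors deposited raw read counts per gene for 26 libraries, unnormalised whole numbers. Per the submitters' processing notes the genome was TAIR10; DESeq2 is named there with no role or version. Which aligner and counter were run is not given in the sources used here. Of each file, the 5 entries that name no gene were left out of library sizes and tests. They include reads assigned to no gene, ambiguous reads and reads aligned to more than 1 place. Reads assigned to no gene made up 48.3% to 49.3% of a replicate's listed reads, leaving aside those aligned to more than 1 place. Whether they lie outside genes was not tested.

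Technical libraries, made from the same RNA per the labels, were summed to 10 biological replicates. Their counts differed by 1.252 to 1.303 (chi-square over degrees of freedom) over genes with at least 50 counts, except 2.02 and 2.20 in wild-type replicates 2 and 3. Genes were filtered with filterByExpr (minimum count 10, minimum total 15), scaled with TMM and fitted for all 4 groups with edgeR 4.0.16 (robust quasi-likelihood, no block, 6 residual degrees of freedom, R 4.3.3). The biological coefficient of variation common to all genes was 0.166. Standard errors are the size of the log2 change over the square root of its F statistic. The 6 contrasts were azacytidine in each genotype, the memory line against wild type without and with azacytidine, the difference between the azacytidine responses, and their mean. The scripts were tested on simulated data.

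Levels per kb divide CPM by the exon length of RefSeq TAIR10.1, joined over all annotated transcripts of a gene. The same annotation supplied symbols, positions and sequences. Alternatives were DESeq2 size factors in edgeR, no filter, DESeq2 1.42.0, the replicate number as a block, the first technical library of each replicate and each replicate left out; shares per uniquely placed length and a crossed block were added after seeing the data. The members, the 6 gene lists and the tests were chosen with earlier results of these data known. Values in every replicate were given for the genes called and for the gene with the highest level per kb in each class, and up to 4 called genes with at least 5 CPM were named per list and contrast. HIS1-3, AT4G40030, AT4G40040, HTA8, AT3G46320 and AT3G53650 were named after their values were seen. HTR12 and HTA4 were not called and were also named outside this rule.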

Additional observations from a re-analysis of the deposited data

Results flagged for a closer look

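In memory-line replicate 2, 25.7% of the reads aligned to more than 1 place, against 10.5%, 6.5% and 6.49% in the wild-type replicates. These reads lie outside the gene counts, so no comparison used them. The same replicate had the lowest gene count, 11412839, and the highest levels of HIS1-3, AT4G40040 and AT4G40030 among the 10 replicates.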

How the results depend on the processing

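The 5 histone genes called in wild type numbered 8 with no filter, 9 with DESeq2, 2 with the replicate block, 1 from the first technical libraries and 0 to 11 with a replicate left out; over both genotypes the 1 call became 0 with no filter, the replicate block or the first libraries, 3 with DESeq2 and 0 to 5 with a replicate left out. No histone gene was called in the other 4 contrasts under any alternative run. Counts over all genes also moved. Azacytidine in wild type gave 1408 calls, and 432 to 2500 with a replicate left out. In the memory line 163 became 363 with DESeq2 and 91 to 283 with a replicate left out. Without azacytidine the genotypes differed in 258 genes, 878 with DESeq2, 685 with the replicate block and 32 to 891 with a replicate left out. On azacytidine they differed in 10, 29 with no filter, 276 with DESeq2, 123 with the block, 2 from the first libraries and 1 to 67 with a replicate left out. The interaction gave 4, 7 with no filter, 88 with DESeq2, 11 with the block and 1 to 48 with a replicate left out. The mean response gave 992, 1615 with DESeq2 and 506 to 2006 with a replicate left out. The cause of these moves was not tested, beyond the smaller sample of each left-out fit.

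The replicate numbers were not taken as pairs, because the labels state no block. Deviations from the group means of same-numbered treated and untreated replicates correlated at 0.145, 0.00115 and -0.00487 in wild type. In the memory line the correlation was -0.12. With 2 replicates per group both numbers give that same value by construction, so it cannot decide whether the numbers pair. A replicate block with the memory-line numbers crossed, added after seeing the data, called 3 histone genes in wild type and 0 over both genotypes, and 582, 94 and 8 genes in the genotype contrasts without and with azacytidine and in the interaction. DESeq2 size factors in edgeR left the 5 calls and moved no class sum by an SD. Shares per uniquely placed length moved H2A.X by over an SD in all 4 groups, and H3.1, H3.3 and H2A in treated memory-line plants. Groups of 2 and 3 replicates limit what changes of this size can be called.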

Other observations

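Of 10 further histone genes outside the 39, 5 passed the filter on low counts and 0 were called in any contrast. The share of all genes called was 0.0182% to 6.39%, depending on the contrast. HTR12, the centromeric H3, was at 8.67 and 12.1 CPM in treated memory-line replicates, 8.18 and 10.99 CPM in memory-line replicates, 9.87, 9.76 and 10.2 CPM in treated wild-type replicates, and 9.31, 6.54 and 10.7 CPM in wild-type replicates. These overlapped in every comparison. HTA4, an H2A gene, had 1 and 0 counts in treated memory-line replicates, 0 and 0 in memory-line replicates, 4, 15 and 10 in treated wild-type replicates, and 2, 7 and 11 in wild-type replicates. Its counts in the memory line lay below those of wild type in both conditions. Of all genes tested, 15.3% were separated in that direction without azacytidine and 15.5% with it. HTA4 had at most 15 counts in a replicate, and it was not called without azacytidine (edgeR adjusted p = 0.14) or with it (edgeR adjusted p = 0.236).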
